A study of Mus musculus with 2 samples.

Results

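Gm10800, Gm10801 and Gm21738 are 3 predicted protein-coding genes of the mouse that lie under some of the strongest H1t peaks of the series. They were chosen by name from the 55413 genes annotated on chromosomes 1 to 19, X and Y, because strong and broad peaks had been seen over them, so their peak values are a description and carry no test. Their annotation is that of GENCODE M21 on mm10. Gm10801 (ENSMUSG00000075015.3) lies at chr2:98662237-98664083 on the plus strand. Gm10800 (ENSMUSG00000075014.1) lies at chr2:98666547-98667301 on the minus strand. Gm21738 (ENSMUSG00000095280.1) lies at chr14:19415857-19418930 on the minus strand.

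The chromatin came from spermatogenic cells of ICR mice aged 6 weeks, a preparation of germ cells in which stages of spermatogenesis are not separated and for which the number of animals is not given. One library was immunoprecipitated with an in-house rabbit polyclonal antibody to H1t, and the other is its input, made without antibody and not analysed here. With 1 library per kind there is no replicate and no p-value. A peak list holds no markers by which the cell type could be checked. mm10 is the assembly of the C57BL/6J strain, and sequence of the ICR mice at these loci was not analysed here.

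H1t is a linker histone made in the male germ line. Linker histones bind where DNA enters and leaves the nucleosome and help to compact chromatin. Symbols of the form Gm and a number are given to gene models that were predicted and have no assigned function. Some predicted models lie in tandem repeats, in which a unit of sequence follows itself many times, as in the satellite DNA beside mouse centromeres. Reads from a sequence that exists in many places can be aligned to any of them, to one of them or to none, depending on the aligner's settings, and the settings used for these reads are not known here.

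An exon of each member is shown because the members share sequence with each other and with a group of genes on chromosome 9. The exons are printed 5′ to 3′ in the direction of the gene, from the GENCODE M21 transcripts. Capitals mark bases inside a 31-base word that also occurs in a transcript of a chromosome 9 gene. The first is exon 1 of Gm10801, at chr2:98662237-98662522 on the plus strand. The next is exon 2 of Gm10800, at chr2:98667079-98667228 on the minus strand. The last is exon 3 of Gm21738, at chr14:19417133-19417366 on the minus strand.
Gm10801: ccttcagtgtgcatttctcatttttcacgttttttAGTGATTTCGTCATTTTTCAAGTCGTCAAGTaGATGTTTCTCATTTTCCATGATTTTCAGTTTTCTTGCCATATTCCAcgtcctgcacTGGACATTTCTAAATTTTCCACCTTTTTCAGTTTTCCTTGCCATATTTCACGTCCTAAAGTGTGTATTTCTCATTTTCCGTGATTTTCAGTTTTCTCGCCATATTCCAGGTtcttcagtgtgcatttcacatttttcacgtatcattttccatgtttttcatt
Gm10800: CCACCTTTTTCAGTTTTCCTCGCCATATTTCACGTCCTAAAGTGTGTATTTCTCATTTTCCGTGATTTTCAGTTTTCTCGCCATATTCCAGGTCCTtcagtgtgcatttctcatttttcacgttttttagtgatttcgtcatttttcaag
Gm21738: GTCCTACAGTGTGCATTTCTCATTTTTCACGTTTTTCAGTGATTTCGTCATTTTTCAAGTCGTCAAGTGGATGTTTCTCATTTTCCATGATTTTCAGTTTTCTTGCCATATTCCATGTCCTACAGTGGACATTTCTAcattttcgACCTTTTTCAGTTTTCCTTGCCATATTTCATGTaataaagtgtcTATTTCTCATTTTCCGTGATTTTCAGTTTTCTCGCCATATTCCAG
Capitals take up 188 of 286 bases in the Gm10801 exon (65.7%), 96 of 150 in the Gm10800 exon (64.0%) and 215 of 234 in the Gm21738 exon (91.9%). These exons are examples and do not stand for the whole genes. Counted by 31-base words of the annotated transcripts, joins of exons included, 22.1% of Gm10801, 29.8% of Gm10800 and 43.6% of Gm21738 occurred in chromosome 9 genes.

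Gm21738 had 1 peak, which spanned the whole gene and ran past it on both sides. The peak lay at chr14:19415298-19419781, was 4484 bp wide and had a score of 3100. The score is the authors' own value for each peak, with a scale that is not given, and is used here only to rank peaks within the list. 3100 is the highest score in the list and is shared by 6 of its 76546 peaks, so their order among themselves is not known. In width the peak ranked 53, against a median width of 700 bp. It began 559 bp to the left of the gene and ended 851 bp to its right.

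Gm10800 was also covered over its whole length of 755 bp by 1 peak. This peak, at chr2:98666160-98667642, was 1483 bp wide and had a score of 1154.48, rank 18 in the list. It began 387 bp to the left of the gene and ended 341 bp to its right. Its score was nearly that of the strongest peak over Gm10801, with which it shares the chromosome 2 locus.

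Gm10801 carried 2 peaks. The first, at chr2:98662096-98663269, had a score of 1155.36 (rank 17) and a width of 1174 bp, and lay over the annotated start of the gene. The second, at chr2:98663508-98664340, had a score of 649.99 (rank 94) and a width of 833 bp, and lay over the 3′ end. Between them 238 bp had no peak, all within the middle intron, so 87.1% of the gene's 1847 bp was covered.

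All 15 annotated exons of the 3 genes, 1845 bp in all, lay inside peaks. Of the 12 introns, 11 were covered in full, and the other, an intron of 681 bp in Gm10801, was covered over 65.1% of its length.

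**Figure D1:**
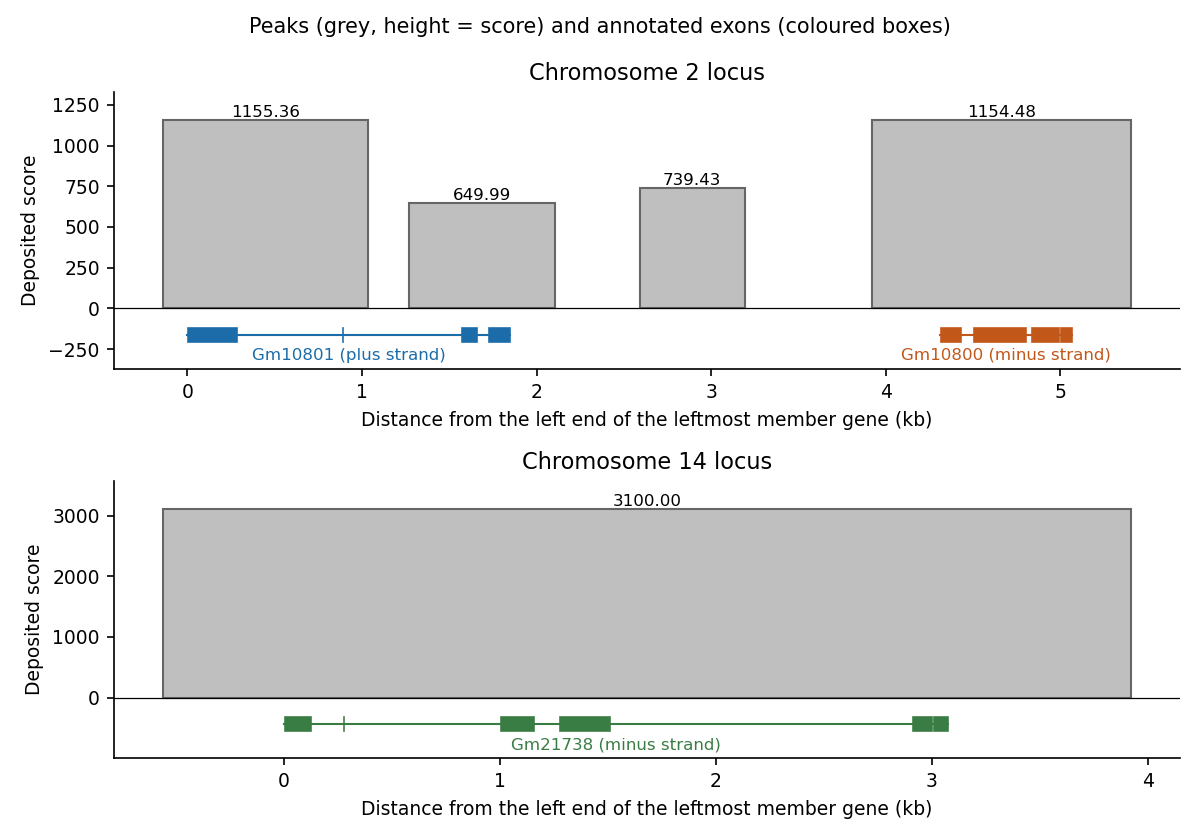
Peaks and exons at the chromosome 2 locus (top) and the chromosome 14 locus (bottom), with position from the left end of the leftmost member on the x axis (kb) and the deposited score as bar height on the y axis. Bar width is peak width and boxes below are exons; every exon lies under a bar, and the only uncovered part of a member is the gap of 238 bp in Gm10801.

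Set beside all genes, these values lie at the far end. A covered share of 50% or more was reached by the 3 members, where 1.38% of all genes and 0.912% of the 21938 protein-coding genes reached it. A best score of 1000 or more was likewise reached by 3 of 3, where 0.0501% of protein-coding genes (11 genes) reached it. Since the members were chosen for such peaks, nothing is read from these counts. Among coding genes Gm21738 ranked 1, level with Tmem267, Gm10801 5 and Gm10800 6 by best score. Just 5 coding genes (0.0228%) combined a covered share of 50% or more with a score of 1000 or more. The members were 3 of these, and the other two were AW822073 (100% covered, score 1119.86) and Duxf3, a homeobox gene of the Dux repeats (75.8%, 1014.81).

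Short genes are easily covered by a single peak, so genes of 0.8 to 1.25 times each member's length were compared as well. Of 4025 genes near the length of Gm10800, 3.90% overlapped a peak and 2.46% were covered by 50% or more. Of 3178 near the length of Gm10801, 12.9% overlapped a peak and 1.98% were covered by 50% or more. Of 3914 near the length of Gm21738, 13.98% overlapped a peak and 1.02% were covered by 50% or more. The number of these genes with a higher score was 1 for Gm10800 and 1 for Gm10801. For Gm21738 it could only be 0, since 3100 is the highest score in the list. The highest score among the genes near its length was also 3100. The members were chosen for strong and broad peaks, so these counts are a description.

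**Figure D2:**
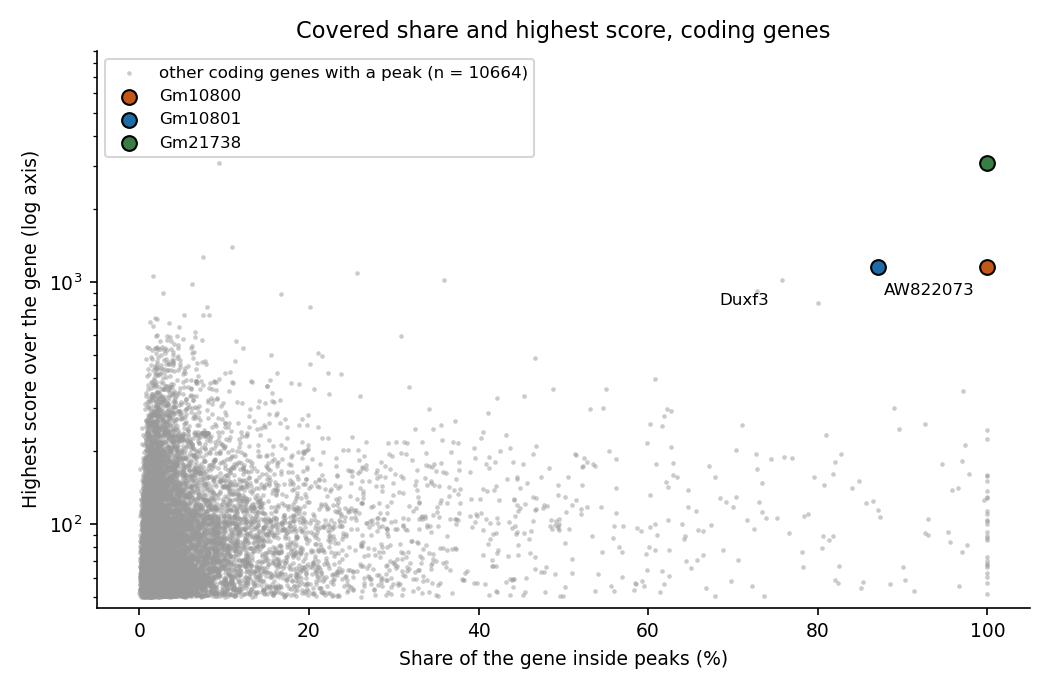
Share of the gene inside peaks (x axis, %) and highest score over the gene (y axis, log scale) for coding genes with a peak, one point per gene. The members (large points) sit at 87.1% or 100% covered with scores of 1154.48 or more, while other genes that are fully covered have lower scores.

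The peaks of the chromosome 2 locus formed a tight run. Besides the 3 peaks over the members, a peak at chr2:98664827-98665427 with a score of 739.43 (rank 59) lay in the 2463 bp between the genes, of which 50.5% was covered. The 4 peaks together ran from 98662096 to 98667642, a stretch of 5547 bp, and covered 73.8% of it, with gaps of 238 to 732 bp. To the left the next peak lay 23523 bp away, and to the right 59263 bp. These gaps were longer than 61.2% and 82.4% of those between autosomal peaks. The median gap between neighbouring autosomal peaks was 13513 bp.

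Peaks around this run were weak. In the 100 kb on each side lay 7 further peaks, 3 to the left and 4 to the right, with scores of 50.74 to 155.81 and a median of 58.95. The weakest peak of the locus (649.99) thus scored above the strongest of its flanks, and the median of all peaks was 74.04. These 7 peaks covered 2.50% of the flanks. Over all genes the median flank cover was 1.96%, with the overhang of a gene's own peaks included. Counted for each gene, with the other peaks of the locus included and its own left out, Gm10800 had 10 peaks in its flanks and Gm10801 had 9. The median over all genes was 5.

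Gm21738 was the only member on chromosome 14. The nearest peak to the left was 105248 bp from its own peak, a longer gap than 92.6% of those between autosomal peaks. To the right the nearest was 50077 bp away, a longer gap than 78.7% of them. The 100 kb on the left held 0 peaks and the 100 kb on the right held 6, with scores of 59.35 to 263.95 and a median of 88.98. They covered 2.57% of the flanks, or 3.28% with the overhang of the gene's own peak included. Over all genes the median was 5 flanking peaks and, with such overhang included, a flank cover of 1.96%.

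The chromosome 2 flanks held 1 annotated gene, the processed pseudogene Gm13806, with 0 peaks. The chromosome 14 flanks held 5, the processed pseudogenes Gm5630, Gm9637, Gm7352 and Gm36704 and the lincRNA Gm48105. Of these, Gm36704 overlapped 1 peak, with a score of 64.97, and the others overlapped 0. No flanking gene is protein-coding, and within 100 kb the peaks with a score of 500 or more were those over the members and the one between Gm10801 and Gm10800.

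**Figure D3:**
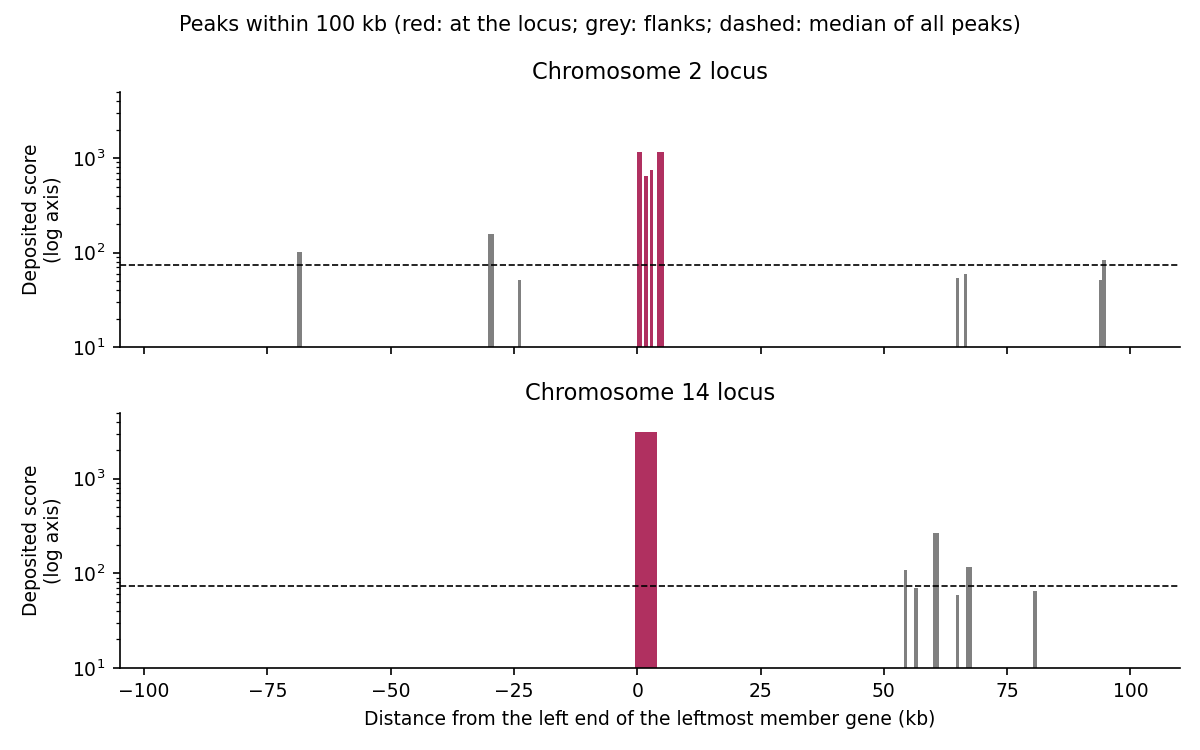
Peaks within 100 kb of the chromosome 2 locus (top) and the chromosome 14 locus (bottom), with position from the left end of the leftmost member on the x axis (kb) and score on a log y axis. Peaks at the loci (red) score 649.99 or more and flanking peaks (grey) 263.95 or less; the dashed line is the median of all peaks, 74.04, and bars are drawn at least 0.6 kb wide.

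The sequence of the members was compared through 31-base words, taken from annotated transcripts and looked up on both strands in the transcripts of all other genes that do not overlap them. This measure does not use the peaks. Of 505 different words of Gm21738, 220 (43.6%) occurred in another gene. For Gm10800 it was 228 of 543 (42.0%), and for Gm10801 169 of 467 (36.2%). Each member thus holds both words found elsewhere and words not found in another transcript at this length. The words run along joined exons, so some span a join and depend on the gene model. How many of the unshared words do so was not counted.

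The members share part of this sequence with each other. Gm10800 and Gm10801 had 137 words in common, Gm10800 and Gm21738 had 84, and Gm10801 and Gm21738 had 49. All shared words were in the same sense relative to the transcripts. Since Gm10801 is on the plus strand and Gm10800 on the minus strand, the shared sequence runs in opposite directions at the ends of the chromosome 2 locus.

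All other genes with such words lay at one place, the start of the annotated part of chromosome 9. There were 10, within chr9:3000282-3038316, a stretch of 38035 bp. They are the coding genes Gm10715, Gm10717, Gm10718, Gm10719, Gm10720, Gm10721, Gm10722, Gm11168 and Gm17535 and the lincRNA Gm26870, which lies on the opposite strand to the other 9 and overlaps them. Gm21738 shared the most words with Gm10719 (198) and Gm10718 (197), and the fewest of these 10 with Gm10715 (102). Gm10800 shared 138 with Gm10717 and Gm10801 shared 100 with it. One word, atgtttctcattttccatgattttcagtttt, occurred in all 3 members and in 9 of the 10 chromosome 9 genes, Gm10715 being the exception. It is 1 of 16 words that occurred in 12 of these 13 genes, the most for any word.

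None of the 10 chromosome 9 genes overlapped a peak (0 of 10). The 9 coding ones had 56.9% to 89.3% of their words in other coding genes, counted with 1 transcript per gene. By the same count the members had 34.3% to 43.4%. The background was 48.6% of coding genes and 25.8% of all genes with a peak. For genes of about the length of Gm10801 (1847 bp), near the median length of 1615 bp of the 10, it was 27.1% of coding genes and 12.9% of all genes. Among coding genes with a transcript GC content of 36% or less, a class that holds 9 of the 10, it was 14.4%. Among coding genes with 50% or more of their words in another coding gene, a class that holds the same 9, it was 26.1%. The 10 genes lie side by side, so they count as 1 place and not as 10 independent cases. The first peak of chromosome 9 began at 3121044, 82727 bp to the right of the last of these genes, with a score of 61.84. The distance from the first of these genes to this peak was 120762 bp, longer than 94.3% of the gaps between autosomal peaks. Those gaps run from peak to peak, whereas this distance runs from a gene near the chromosome start, so the measures differ. Of the 19 autosomes, chromosome 9 had the longest distance from its first annotated gene to its first peak, and the next was chromosome 3 with 82955 bp. On X it was 348113 bp. This distance also depends on where the first gene starts, at 3000282 on chromosome 9. By position, the first peak of chromosome 9 lay close to those of chromosome 11 (3116527) and chromosome 17 (3111985).

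How reads that match several places were assigned is not given, and the part of multi-copy sequence in the members' peaks was not tested. The following values bear on it. Between 36.2% and 43.6% of each member's words occur in other genes, the other members included. In the chromosome 9 genes, which have no peak, occur 43.6% of the words of Gm21738, 29.8% of Gm10800 and 22.1% of Gm10801. In the other members, which have peaks, occur 17.4%, 32.4% and 30.2%, in the same order. Repeat and copy number in the genome outside transcripts were not analysed here. In a table of 32851 RefSeq promoters of GRCm38.p6, 0 held a word of a member.

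Within each member, sequence also recurs. Bases of annotated exons were compared with exon bases a fixed distance away in the assembly, for distances of 20 to 1200 bp with at least 100 pairs of bases. In Gm10800 the highest identity was 96.6% at 485 bp (175 pairs), and in Gm21738 94.8% at 351 bp (155 pairs), followed by 91.2% at 1053 bp. In Gm10801, whose exons allowed 213 distances, it was 62.5% at 176 bp (200 pairs), followed by 62.4% at 118 bp. Over all distances compared, the median identity was 30.3% to 31.2% in the members.

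A shorter spacing was common to the members. At 58 bp, Gm10801 had an identity of 56.0%, Gm10800 of 54.7% and Gm21738 of 56.4%. The chromosome 9 genes had 55.6% to 60.6% at the same distance. At 234 bp, the length of exon 3 of Gm21738, the identity was 63.6% in Gm10800 and 41.1% in Gm21738 over the bases that could be compared. In the 9 chromosome 9 genes with enough pairs at this distance it ran from 79.3% in Gm10720 and 83.4% in Gm10717 to 97.04% in Gm10719. The distances of 58 and 234 bp were picked after the values were seen.

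Among 1067 other coding genes with a transcript of 400 to 800 bases, the highest identity at any distance up to 600 bp had a median of 35.5%. Of these, 11 (1.03%) reached the 62.5% of Gm10801, the lowest of the members. Each value is the highest of many distances, in the members as in the other genes.

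**Figure D4:**
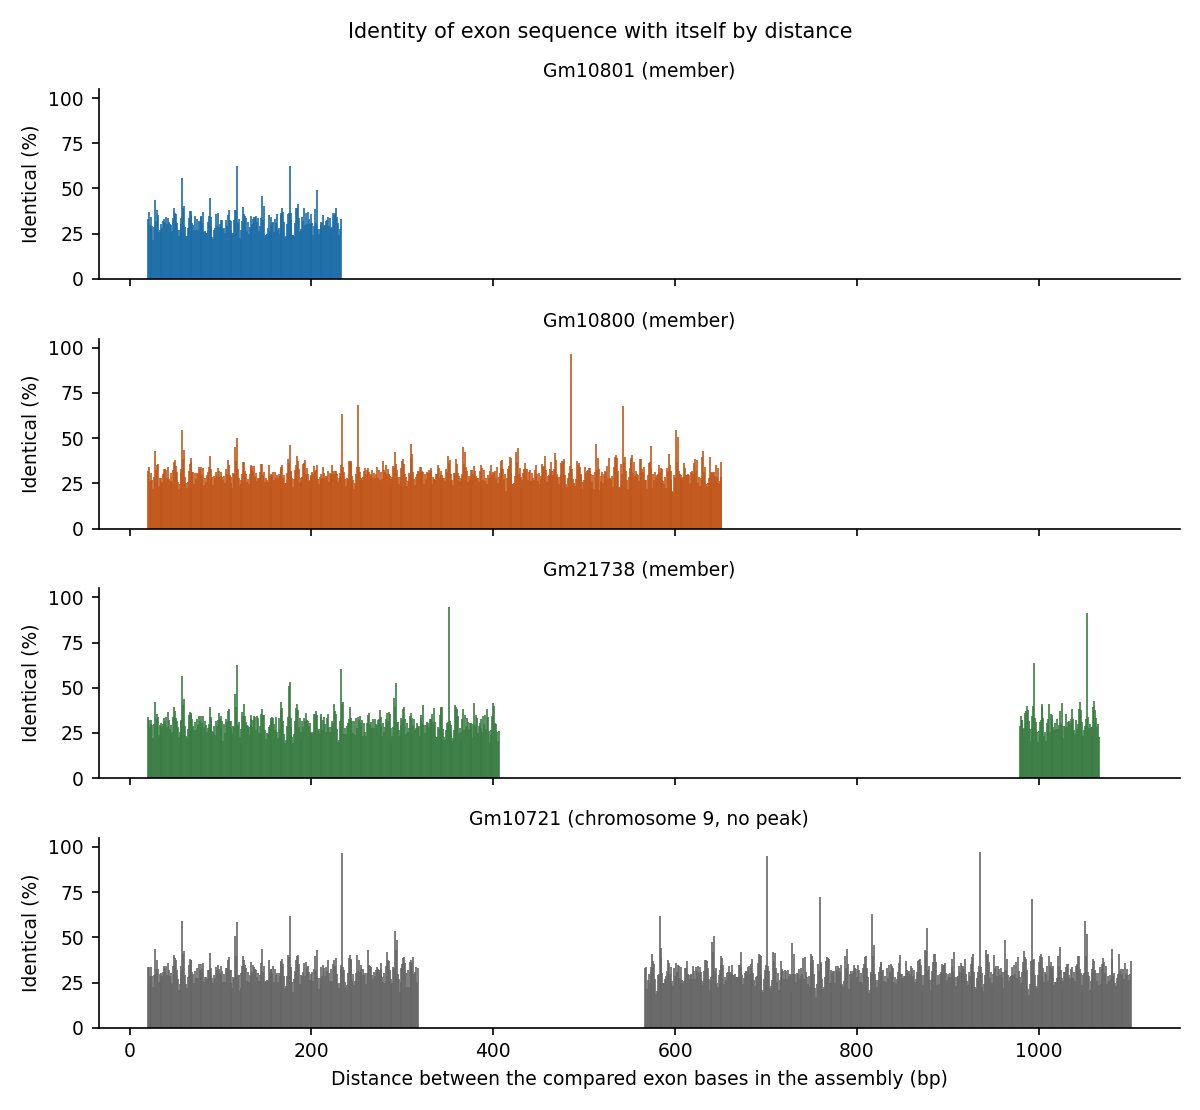
Identity of exon sequence with itself (y axis, % of compared bases that are identical) at each distance in the assembly (x axis, bp) for the 3 members and for Gm10721, a chromosome 9 gene with no peak. Blank stretches are distances with fewer than 100 pairs. Over a level near 30%, narrow spikes rise to 96.6% in Gm10800 at 485 bp. In Gm10721 they rise to 97.0% at 935 bp and 96.6% at 234 bp.

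The gene models themselves are unusual. Gm10800 has 4 introns, of which 1 is 1 bp long and 1 is 4 bp long, and Gm21738 has 5, of which 1 is 4 bp long. Gm10801 has 3 introns, the shortest of 65 bp. An intron of 10 bp or less was annotated in 91 of 20620 coding genes with an intron (0.441%), and in 9 of the 10 chromosome 9 genes. Introns that short cannot be spliced by the known machinery. Expression of the members was not measured in this series.

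The members are poor in G and C bases. Transcript GC content was 35.2% in Gm21738, 35.9% in Gm10800 and 34.3% in Gm10801, against a median of 48.7% in coding genes. Of 525 other coding genes with a transcript GC content of 36% or less, 73 overlapped a peak, 0 were covered by 50% or more, and the highest score was 541.75, at Gm45844. With the members included, 14.4% of this class overlapped a peak. The limit of 36% was set after the members' values were seen. The class holds 9 of the 10 chromosome 9 genes. When coding genes were divided into 5 classes of equal size by transcript GC, the share with a peak was 32.3% in the lowest class and 69.1% in the highest, and 168 of the 200 genes covered by 50% or more were in the highest class. The members lie in the lowest class, which holds 5 such genes with the 3 members counted among them.

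**Figure D5:**
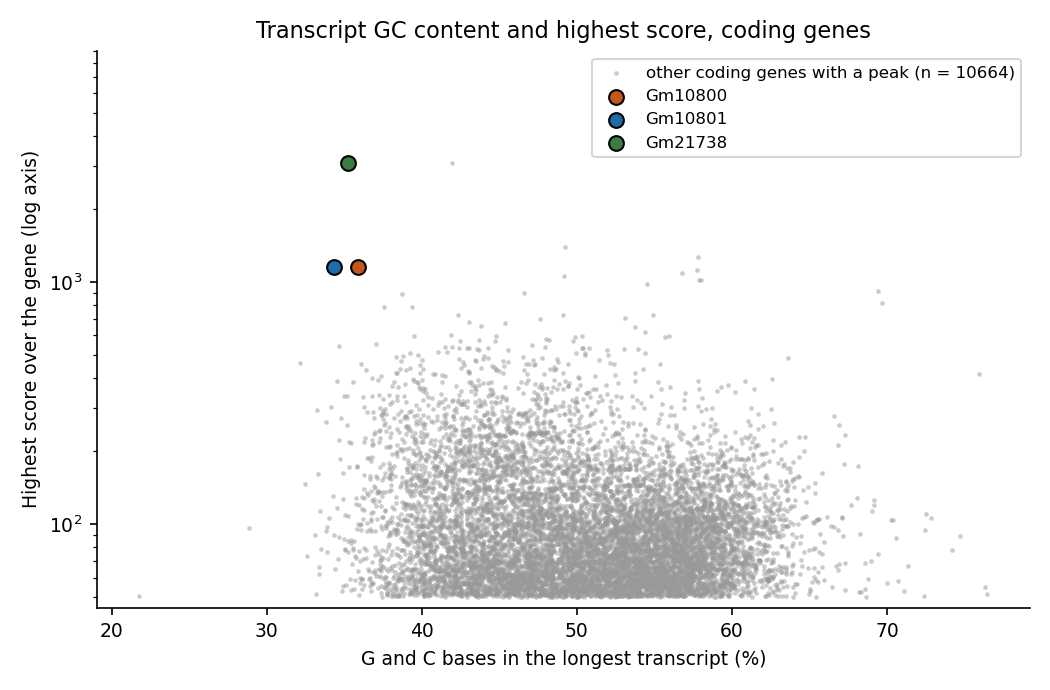
Transcript GC content (x axis, %) and highest score over the gene (y axis, log scale) for coding genes with a peak, one point per gene. The members (large points) lie at 34.3% to 35.9% GC with scores of 1154.48 to 3100, and the other genes at 36% GC or less score 541.75 or less.

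Other genes with strong cover were of different sequence. Among genes of any type of at least 500 bp and covered by 50% or more, the 10 with the highest scores after the members included 4 of the ribosomal RNA locus on chromosome 17 (AY036118, CT010467.1, Gm26917 and Gm42418), each covered in full at a score of 3100. These 4 overlap or lie side by side, so they count as 1 place. Their transcripts had 0 words in annotated transcripts of genes that do not overlap them. Copies outside annotated transcripts were not searched, so this 0 does not show that the locus is single-copy. AW822073 had 65.3% of its words in 4 other genes and Duxf3 60.3% in 4. Gm47283 on Y (918.07) had 46.8% and Gm21887 on X (817.41) 62.0%, each in 1 other gene. Gm15247 (732.20) had 12.6% in 3 other genes and the pseudogene Gm7281 (510.41) 57.3% in 10. GC content in these 10 genes ran from 43.6% to 69.7%, above all 3 members.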

How the data were processed

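The submitters' processing notes name mm10 as the assembly and Bowtie 1.1.2 as the aligner. The authors deposited a list of 76546 peaks with a position, a name and a score; peak names look like those of MACS, and scores run from 50 to 3100. For the peak caller, threshold, control, read depth and rule for reads that match several places, nothing is given in the sources used here, so no counting interval can be computed. The 76434 peaks of the autosomes, X and Y were set against GENCODE M21 genes, with positions counted from 1. Cover is the share of a gene inside peaks, overlap is at least 1 bp, and flanks are 100 kb on each side. Words are distinct 31-base stretches of annotated transcripts. Entries of RefSeq (GRCm38.p6) served for promoters, and 0 of the members had one there. No genome or protein sequence was used. The members, lists and rules were chosen with earlier results of these data known. Named genes are the members, their neighbours within 100 kb, the genes sharing words with them and the 10 other highest-scoring genes covered by 50% or more; Tmem267, Gm45844 and Gm9877 were named after their values were seen. Alternatives covered scores, gene extent, overlap, windows, gene sets and words. The functions were tested on simulated intervals and repeats. The tools were scipy 1.17.1, pandas 2.3.3, numpy 2.4.6 and, for plots, matplotlib 3.10.9, under Python 3.11.15.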

Additional observations from a re-analysis of the deposited data

How the results depend on the processing

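No paired analysis was possible because there is 1 library of each kind. Of 89 alternative values, 52 stayed within the nominal 95% binomial interval of a share, within 1.5 times a count, or at the same score, and 37 moved. Best score was the same in all alternatives. So was the number of peaks over each member, except that Gm10801 had 3 with 1 kb added on each side. The limits on peak score, the median of 74.04 and 500, could not change the peak count, cover or best score of a member. Every peak over a member scored 649.99 or more. These fixed values are counted among the 52 and say nothing about stability. With 1 kb added on each side of the gene, cover fell to 53.8% for Gm10800, 58.9% for Gm10801 and 88.4% for Gm21738. With exons only, cover of Gm10801 was 100%.

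Counts of flanking peaks for Gm10800, Gm10801 and Gm21738 were 6, 5 and 3 with peaks at or above the median score, 3, 2 and 0 at scores of 500 or more, and 5, 4 and 0 with 50 kb on each side; with 200 kb Gm21738 had 15. The covered share of the flanks was 4.17%, 3.74% and 3.28%. It was 3.12%, 2.70% and 2.30% at or above the median score, 1.67%, 1.24% and 0.705% at 500 or more, 5.19%, 4.34% and 1.41% with 50 kb, and 2.35%, 2.13% and 3.51% with 200 kb. With the genes of a chromosome taken as one locus, an alternative chosen after seeing the data, it was 2.50%, 2.50% and 2.57%.

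The share of genes covered by 50% or more, 1.38% over all genes, was 0.912% for coding genes and 0.594% for genes of at least 1 kb. Words of 21 bases raised the shared part of Gm10800, Gm10801 and Gm21738 to 53.5%, 52.2% and 54.5%, and words of 50 bases lowered it to 27.4%, 17.1% and 32.01%; fewer long words match by construction. The count of 0 peaks over the genes sharing words was also 0 with words of 21 bases (11 genes, the added one being the pseudogene Gm9877). The annotated strand alone (9 of the same genes) and 10 kb added on each side, where the nearest peak is 82727 bp away, could give no other value. These 3 alternatives were chosen after seeing the data. Input and depth were not analysed here, which limits what a score can show.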

Other observations

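Of 1506 coding genes with a symbol of Gm and digits, 26.0% overlapped a peak, against 50.3% of the 20432 other coding genes. Cover of 50% or more was found in 4.25% of them and in 0.666% of the others, and gene length was not matched in this comparison. The 3 with a score of 1000 or more were the members, which were chosen for such peaks.

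Coding genes that share sequence with other coding genes were counted in the same manner, with 1 transcript per gene. Of 2027 genes with 50% or more of their words in another coding gene, 26.1% overlapped a peak and 3.11% were covered by 50% or more. Of 19909 genes with less, 50.9% overlapped a peak and 0.688% were covered by 50% or more. A score of 1000 or more was found in 2 of the former, AW822073 and Duxf3, and in 9 of the latter, which include the members (34.3% to 43.4% of words shared with coding genes). These groups were formed after the data were seen, and length and GC content were not matched.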
